A study of Mus musculus with 6 samples.

Results

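The genes described here encode 43 lysosomal proteins: cathepsins, other hydrolases, membrane proteins, proton pump subunits and the transcription factor Tfeb. They were chosen by name from a list of lysosomal enzymes and membrane proteins, and all 43 were among the 17419 genes of the table and passed the filter on low counts. RNA had been sequenced from fibroblasts of the tendon enthesis, where tendon joins bone, of SKG mice, a strain prone to autoimmune arthritis through a Zap70 mutation. The labels put 3 samples in a diseased group and 3 in an un-diseased group; both come from SKG mice. The titles carry NTS for diseased and UN for un-diseased samples without explaining either, and the agent that brought on disease, the age and the number of animals per sample were not given in the sources used here. Whether each sample came from its own animal is not stated in the labels, so p-values reflect the spread among these 6 samples alone, which may be technical.

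Lysosomes are acidic organelles in which hydrolases break down proteins, glycans and lipids brought in by endocytosis and autophagy. A proton-pumping ATPase acidifies them, heavily glycosylated membrane proteins line them, and the transcription factor TFEB switches on many of their genes through an E-box-like promoter element. In connective tissue, lysosomal and secreted cathepsins take part in collagen turnover, cathepsin K in particular, and lysosomal exoglycosidases and sulfatases take apart glycosaminoglycans.

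Total counts lay between 16720605 and 18290870 per sample. Levels are in CPM, read counts scaled to a common library size by TMM. Each log2 fold change sets diseased over un-diseased samples and carries a standard error (SE). The SE was worked back from the test, as the absolute log2 fold change over the square root of edgeR's quasi-likelihood F statistic. Fibroblast markers were abundant in every sample: Col1a1, Col1a2, Col3a1, Pdgfra, Pdgfrb, Thy1, Dcn and Lum together had 81505 to 114949 CPM in diseased and 60549 to 86778 CPM in un-diseased samples. Of 22 macrophage markers, 21 were tested and 20 had a positive log2 fold change, with a median of 1.29. None of them passed by edgeR and DESeq2 called 5. Before adjustment 8 were under 0.05 by edgeR, beside 27.8% of all tested genes. With the replicate number as a block, edgeR called 20 of the 21 higher and none lower, beside 10.5% and 13.3% of all tested genes. Their median log2 fold change in that fit was 1.44. Their summed level was 224 to 606 CPM in diseased and 54.2 to 299.9 CPM in un-diseased samples, and Fcgr1 was at 0 in a sample. Other cell markers moved too. Of 5 tendon markers Thbs4 and Fmod were called higher without the block and 4 with it. Of 7 tested endothelial markers Erg was called higher without the block, and with it 3 were called higher and 1, Tek, lower. The 8 endothelial markers summed to 48.6 to 65.7 CPM in diseased and 58.1 to 83.5 CPM in un-diseased samples. Tek made up most of that sum, with means of 37.7 CPM in diseased and 63.6 CPM in un-diseased samples. Of the 7 tested, 5 had a positive log2 fold change, and the median was 1.13. All 4 tested mast cell markers were called lower with the block. In that fit 3 of 9 tested neutrophil markers were called higher and none lower. Of 3 tested lymphocyte markers 1 was called lower, and of the 8 fibroblast markers 2 were called higher. In bulk samples, fewer cells of a type and less RNA per cell cannot be told apart.

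Most lysosomal genes were at close levels in both groups. The 43 genes summed to 9820, 11744 and 10364 CPM in diseased samples, against 9496, 11029.5 and 12093 CPM in un-diseased samples (replicates 1, 2 and 3), and the groups overlapped. The median log2 fold change was 0.07, beside 0.02 over all 13264 genes tested, and 26 of the 43 were within 0.25 of zero. The share of all tested genes within 0.25 was not counted. A positive log2 fold change, however small, was seen in 31 of the 43 (72.1%), beside 51.8% of all tested genes. By edgeR's quasi-likelihood test at an adjusted p of 0.05, 1 of 43 rose (Glb1), none fell and 42 did not pass. That is 2.33% called, beside 3.73% of all tested genes (1.61% called higher and 2.13% lower). An unadjusted p under 0.05 was reached by 13 of the 43 (30.2%), beside 27.8% of all genes. DESeq2 called 5 of the 43, Glb1, Gaa, Rnaset2a and Ctsc as higher and Ctsl as lower, or 11.6%, beside 10.8% of the 14041 genes to which it gave an adjusted p. The diseased and un-diseased samples did not overlap in CPM for 14 of the 43 (12 higher and 2 lower in diseased samples), or 32.6%, beside 31.9% of all tested genes (16.5% higher and 15.4% lower).

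The labels do not say what same-numbered samples share, and their pairing was inferred from these data. With the replicate number as a block, since same-numbered samples deviated together, 12 of 43 passed, 9 higher and 3 lower in diseased samples. That is 27.9% of the lysosomal genes, beside 23.9% of all tested genes called in that fit. By direction, 20.9% of them were called higher, beside 10.5% of all genes, and 6.98% lower, beside 13.3%. In the same fit 20 of 21 macrophage markers were called higher, and their part in the direction of the lysosomal calls was not tested. Only Ctsc, Ctss, Gaa and Rnaset2a of the 12 passed whichever of the 3 pairs was left out. The share of all tested genes that did so was not counted. Within pairs, 16 of the 43 (37.2%) were higher in the diseased sample in every pair, beside 30.7% of all tested genes, and 7 (16.3%) were lower in every pair, beside 30.1%.

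**Figure D1:**
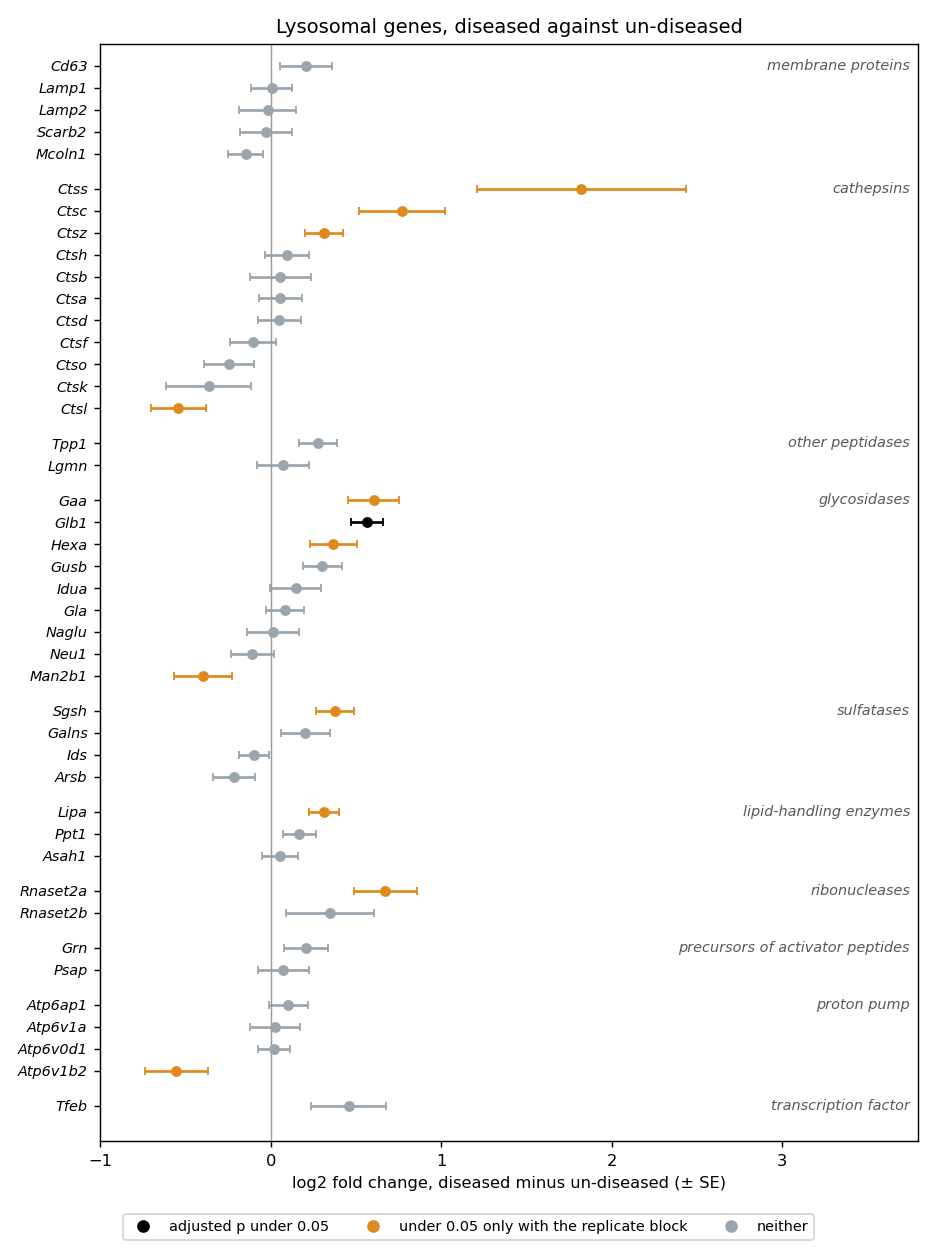
Log2 fold change, diseased minus un-diseased, on the x axis with its standard error as bars, for each of the 43 lysosomal genes grouped by role down the page. Glb1 alone passed by edgeR without the block (black), 11 passed only with it (orange), and 31 passed in neither fit (grey).

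None of the 5 membrane proteins passed in either fit. Lamp1, the most used marker of the lysosomal membrane, had 521, 539.8 and 499.6 CPM in diseased samples, against 505, 561 and 489.7 CPM in un-diseased samples, for a log2 fold change of 0.00 (SE 0.12, adjusted p = 0.982 by edgeR). All diseased values lay within the un-diseased range. Its partner Lamp2 had a log2 fold change of -0.02 (SE 0.17). Scarb2, the receptor that carries glucocerebrosidase to the lysosome, had -0.03 (SE 0.15), and the tetraspanin Cd63 had 0.21 (SE 0.15). Mcoln1, the lysosomal calcium channel TRPML1, had 29.5, 27.6 and 25.3 CPM in diseased samples, against 30.6, 28.6 and 32.0 CPM in un-diseased samples, and a log2 fold change of -0.15 (SE 0.10, adjusted p = 0.374 by edgeR). Diseased replicate 1 lay within the un-diseased range.

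The 11 cathepsins were the most spread out of the roles, with log2 fold changes between -0.54 (Ctsl) and 1.82 (Ctss) and a median of 0.06. Without the block none passed by edgeR. Before adjustment 4 of the 11 were under 0.05, Ctsc, Ctsl, Ctss and Ctsz, beside 27.8% of all tested genes. With the block Ctsc, Ctss and Ctsz were called higher and Ctsl lower, beside 10.5% and 13.3% of all tested genes. The other 7, Ctsa, Ctsb, Ctsd, Ctsf, Ctsh, Ctsk and Ctso, passed in neither fit.

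Ctsl encodes cathepsin L, an endopeptidase that degrades much of the protein reaching the lysosome. It had 1011, 1235 and 1021 CPM in diseased samples, against 1377, 1683 and 1705 CPM in un-diseased samples. Every diseased sample lay below every un-diseased one. The log2 fold change was -0.54 (SE 0.16), and edgeR's adjusted p was 0.0967 without the block and 0.0267 with it. Leaving out pair 1 or pair 3 ended the blocked call (edgeR adjusted p = 0.0731 and 0.114). In the authors' deposited table, whose log2 ratios run un-diseased over diseased, Ctsl has 0.55 with a q-value of 0.00733. Of the 43 genes, 4 have a q-value under 0.05 there. Glb1, Gaa and Rnaset2a are higher in diseased samples and Ctsl is lower.

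Ctss encodes cathepsin S, which macrophages, dendritic cells and B cells use to process the invariant chain of class II molecules. It had 49.1, 57.0 and 28.3 CPM in diseased samples, against 12.1, 23.0 and 2.79 CPM in un-diseased samples. The groups did not overlap, although diseased replicate 3 and un-diseased replicate 2 lay close. The log2 fold change was 1.82 (SE 0.61, adjusted p = 0.121 by edgeR), and 2.07 (SE 0.30, adjusted p = 0.00382) with the block. It was the only one of the 43 with a log2 fold change beyond 1 in either direction.

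The summed macrophage markers had the same order of samples within each group as Ctss, though single markers such as Cd14 did not. Their summed level was 397, 606 and 224 CPM in diseased replicates 1, 2 and 3, against 135, 299.9 and 54.2 CPM in un-diseased replicates 1, 2 and 3. Per 100 counts of the 22 markers there were 12.4, 9.40 and 12.6 counts of Ctss in diseased samples, against 8.98, 7.68 and 5.14 in un-diseased samples. Every diseased sample had a higher ratio than every un-diseased one, at 9.40 against 8.98 where they were closest. The 22 markers differ widely in level, and the ratio depends on which are summed. Lyz2, with the highest mean of them in both groups, had a log2 fold change of 1.72 (SE 0.70), or 2.09 (SE 0.34) with the block. Ratios to single markers were not compared. The part of macrophage RNA in the Ctss difference was not tested.

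**Figure D2:**
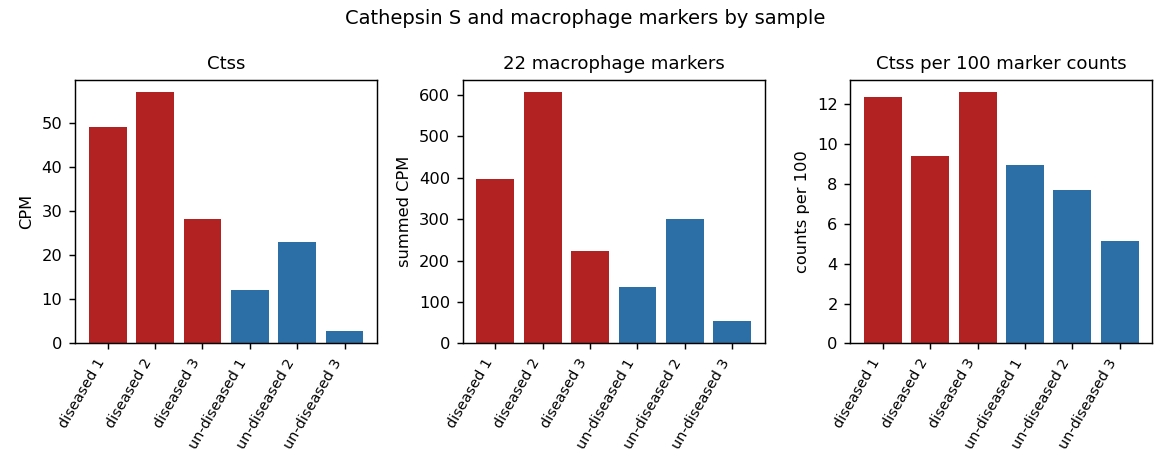
Bars give, for each of the 6 samples, the CPM of Ctss (left), the summed CPM of 22 macrophage markers (middle) and the counts of Ctss per 100 counts of those markers (right), diseased samples in red and un-diseased in blue. In both groups replicate 2 is highest and replicate 3 lowest in the left and middle panels.

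Ctsc, cathepsin C, is a dipeptidyl peptidase that activates the serine proteases of granulocytes and mast cells. It had 51.3, 77.7 and 67.7 CPM in diseased samples, against 25.3, 40.7 and 49.4 CPM in un-diseased samples, with every diseased sample above every un-diseased one. The log2 fold change was 0.77 (SE 0.25, adjusted p = 0.117 by edgeR) and 0.80 (SE 0.13, adjusted p = 0.00519) with the block. Ctsc was lowest in replicate 1 of both groups. Ctsz, the carboxypeptidase cathepsin Z, had 151, 182 and 178 CPM in diseased samples, against 131, 138 and 142 CPM in un-diseased samples. These did not overlap, and its adjusted p was 0.133 by edgeR and 0.0495 with the block, just inside the threshold.

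Per kilobase of exon, Ctsk was the most abundant of the 43 in both groups, at 519.6 CPM per kilobase in diseased and 669 CPM per kilobase in un-diseased samples. It encodes cathepsin K, the collagenase of osteoclasts that fibroblasts also make. In CPM not scaled by length, the means of Ctsb, Psap and Ctsl were above that of Ctsk in both groups. The order per kilobase depends on exon lengths joined over coding transcripts, 1512 bases for Ctsk and 6168 for Ctsl. Ctsk had 705, 989 and 663 CPM in diseased samples, against 740.2, 978 and 1317 CPM in un-diseased samples, and the groups overlapped. The log2 fold change was -0.37 (SE 0.25, adjusted p = 0.361 by edgeR). Pairs 1 and 2 had log2 ratios of -0.07 and 0.02 and pair 3 had -0.99, so the diseased sample was clearly lower in pair 3 alone. The 10 osteoclast markers summed to 232, 492 and 309 CPM in diseased samples, against 410.4, 610 and 552 CPM in un-diseased samples, with Nfatc1 the highest gene in every sample, and the groups overlapped. None of the 5 tested passed by edgeR, where Itgb3 and Nfatc1 were under 0.05 before adjustment, and DESeq2 called 1. With the block Mmp9 was called higher and Nfatc1 lower. Calcr, Ocstamp, Dcstamp and Oscar were at or under 0.689 CPM in every sample, while Acp5 had 58.3, 71.4 and 59.8 CPM in diseased samples, against 34.6, 42.5 and 66.1 CPM in un-diseased samples. Their part in the level of Ctsk was not tested. Ctsk and Ctss are neighbours on chromosome 3, 17398 bases apart, and had log2 fold changes of opposite sign.

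Psap, the saposin precursor, followed at 501 CPM per kilobase in diseased and 477 in un-diseased samples, and Ctsb, cathepsin B, at 408 in diseased and 392 in un-diseased samples. Ctsd, the main aspartic protease of lysosomes, had 443, 520.2 and 432 CPM in diseased samples, against 448, 462 and 437 CPM in un-diseased samples, for a log2 fold change of 0.05 (SE 0.13, adjusted p = 0.816 by edgeR). At the low end, Idua had 2.22 CPM per kilobase in diseased and 2.01 in un-diseased samples, Tfeb 2.00 in diseased and 1.46 in un-diseased samples, and Rnaset2b 0.792 in diseased and 0.623 in un-diseased samples. By this measure Ctss stood at position 22 of 43 in diseased and 35 in un-diseased samples. Ctsb, Psap, Ctsl and Ctsk together held 48.7% of the summed CPM of the 43 genes in diseased and 53.1% in un-diseased samples.

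**Figure D3:**
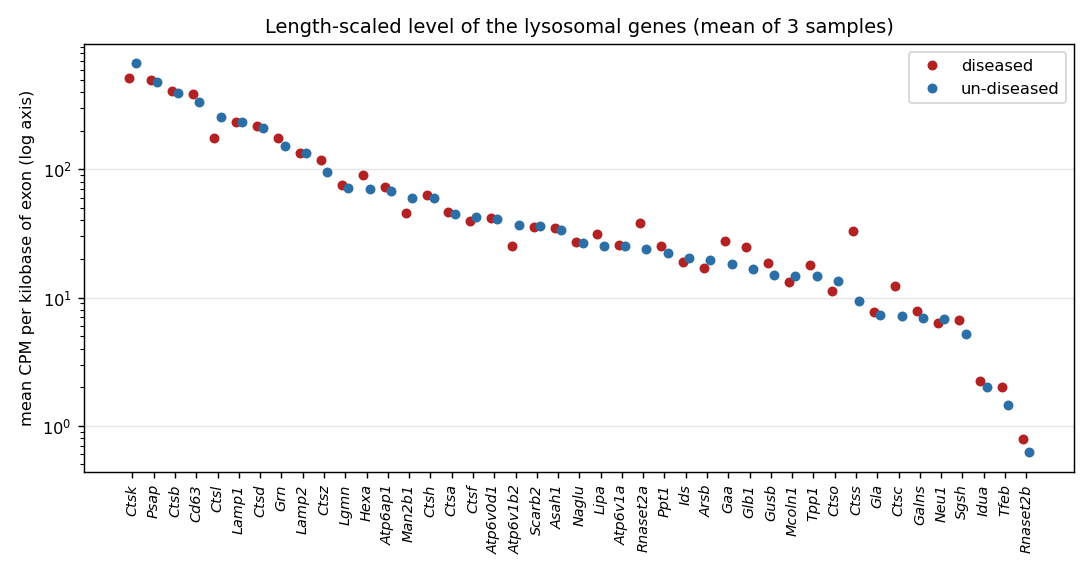
Mean level of each lysosomal gene in 3 diseased (red) and 3 un-diseased (blue) samples, in CPM per kilobase of exon on a log axis, ordered by the un-diseased level. The order runs from Ctsk at 669 to Rnaset2b at 0.623 CPM per kilobase in un-diseased samples, and Ctss shows the widest gap between the groups.

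Among the 9 glycosidases, Glb1 rose. It encodes beta-galactosidase, which removes terminal galactose from gangliosides and keratan sulfate and whose activity is the basis of the senescence-associated stain. Glb1 (gene 12091, GRCm38 chromosome 9, 114401078 to 114474379) had 56.4, 57.3 and 64.2 CPM in diseased samples, against 39.9, 39.9 and 40.5 CPM in un-diseased samples. The un-diseased samples were within 1 CPM of each other and all diseased samples were above them. The means were 59.3 ± 4.25 CPM in diseased and 40.1 ± 0.360 CPM in un-diseased samples (SD, n = 3 each), a log2 fold change of 0.56 (SE 0.09, adjusted p = 0.0277 by edgeR). The call was lost when any sample other than un-diseased replicate 1 was left out, with adjusted p up to 0.133 without diseased replicate 3, while the log2 fold change stayed between 0.50 and 0.60. With the block edgeR's adjusted p was 0.00592, and 0.0506 without pair 3.

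The 250 bases before the Glb1 start are shown because this gene alone passed without the block. They lie at chr9:114400828-114401077 on the plus strand of GRCm38 in the RefSeq promoter table and are 58.0% G and C. Capitals mark TCACGTG, the core of the element that TFEB and its relatives recognise.
Glb1: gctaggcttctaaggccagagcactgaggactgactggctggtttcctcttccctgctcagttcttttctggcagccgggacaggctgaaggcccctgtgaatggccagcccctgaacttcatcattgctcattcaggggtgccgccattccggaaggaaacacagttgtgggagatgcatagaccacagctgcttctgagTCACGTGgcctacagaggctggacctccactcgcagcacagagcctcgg

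Gaa, the acid alpha-glucosidase that digests lysosomal glycogen, had 97.6, 121 and 119.7 CPM in diseased samples, against 60.6, 79.2 and 83.1 CPM in un-diseased samples. All diseased samples lay above all un-diseased ones. Its log2 fold change was 0.60 (SE 0.15), and edgeR's adjusted p was 0.0685 without the block and 0.00401 with it. Hexa, the alpha subunit of beta-hexosaminidase, had 159, 203 and 181 CPM in diseased samples, against 122, 151 and 148 CPM in un-diseased samples. These did not overlap either, and edgeR's adjusted p was 0.143 without the block and 0.0271 with it.

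Man2b1, the lysosomal alpha-mannosidase, had the opposite sign. It had 153, 201 and 165 CPM in diseased samples, against 183, 238 and 264 CPM in un-diseased samples, for a log2 fold change of -0.40 (SE 0.17). The groups overlapped, since diseased replicate 2 was above un-diseased replicate 1, but the diseased sample was the lower one in every pair. By edgeR the adjusted p was 0.183, or 0.0481 with the block, a call that leaving out any 1 of the 3 pairs ended. Gusb, Idua, Gla, Naglu and Neu1 passed in neither fit, with log2 fold changes between -0.11 (Neu1) and 0.30 (Gusb).

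Of the 4 sulfatases, Sgsh was called only with the block. Sgsh, the sulfamidase of heparan sulfate breakdown, had 29.2, 32.6 and 26.0 CPM in diseased samples, against 23.0, 22.5 and 22.2 CPM in un-diseased samples, without overlap. Its log2 fold change was 0.38 (SE 0.11), and edgeR's adjusted p was 0.0979 without the block and 0.0390 with it. Ids, Galns and Arsb, which remove other sulfate groups from glycosaminoglycans, had log2 fold changes of -0.10 (SE 0.09), 0.20 (SE 0.14) and -0.21 (SE 0.12). None of these 3 passed.

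Lipa was the only lipid-handling enzyme called with the block. It encodes lysosomal acid lipase, which frees cholesterol and fatty acids from lipoproteins, and had 94.4, 93.6 and 92.5 CPM in diseased samples, against 72.9, 73.1 and 80.2 CPM in un-diseased samples. The groups did not overlap and the diseased samples were within 2 CPM of each other. The log2 fold change was 0.31 (SE 0.09, adjusted p = 0.0913 by edgeR and 0.0395 with the block). Acid ceramidase (Asah1) at 0.06 (SE 0.11) and the palmitoyl thioesterase Ppt1 at 0.17 (SE 0.10) passed in neither fit.

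Rnaset2a encodes an acid ribonuclease, and its near-copy Rnaset2b lies elsewhere on chromosome 17. Over 1783 aligned bases, a GENCODE transcript of each differed at 7 positions, or 99.6% identity, so their counts are uncertain where reads fit both. Rnaset2a had 107, 125 and 154 CPM in diseased samples, against 70.0, 71.9 and 99.9 CPM in un-diseased samples, with no overlap. Its log2 fold change was 0.67 (SE 0.19), and edgeR's adjusted p was 0.0843 without the block and 0.00321 with it. Rnaset2b had 2.84, 2.74 and 2.64 CPM in diseased samples, against 2.29, 1.57 and 2.60 CPM in un-diseased samples, for a log2 fold change of 0.35 (SE 0.26). Its groups did not overlap but lay close, and it passed in neither fit.

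Legumain (Lgmn) and the tripeptidyl peptidase Tpp1 had log2 fold changes of 0.07 (SE 0.15) and 0.28 (SE 0.11). Tpp1 had the lowest blocked adjusted p among genes that failed in both fits, 0.0558. Of the peptide precursors, Psap had 0.07 (SE 0.15) and Grn, the progranulin gene, 0.21 (SE 0.13), and neither passed.

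**Figure D4:**
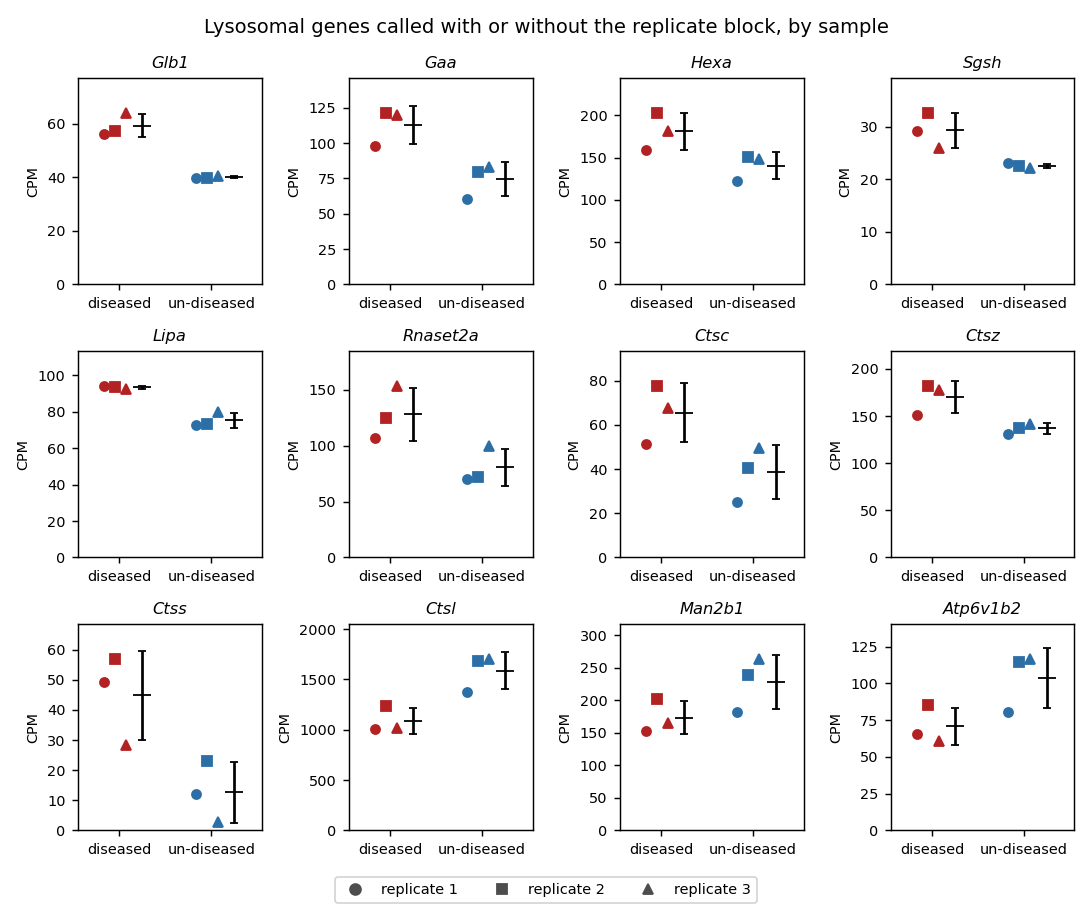
CPM by sample of the 12 lysosomal genes called with the replicate block, diseased on the left in red and un-diseased on the right in blue, with replicate numbers as symbols and the mean ± SD of 3 samples beside them. Among these 12, only Man2b1 and Atp6v1b2 show overlapping groups.

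Of the 4 proton pump genes in the list, 3 passed in neither fit. Atp6v0d1 and Atp6v1a, which encode subunits of the membrane and the catalytic sector, both had a log2 fold change of 0.02 (SE 0.09 and 0.15), and the accessory subunit Atp6ap1 had 0.10 (SE 0.11). Atp6v1b2, the B subunit of the catalytic sector, had 65.8, 85.2 and 61.0 CPM in diseased samples, against 80.4, 114 and 117 CPM in un-diseased samples. The groups overlapped through diseased replicate 2 and un-diseased replicate 1. The log2 fold change was -0.55 (SE 0.18, adjusted p = 0.119 by edgeR and 0.0216 with the block), and leaving out pair 3 ended the blocked call (adjusted p = 0.102).

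Tfeb, the transcription factor, had 9.59, 7.47 and 7.07 CPM in diseased samples, against 7.14, 4.45 and 5.95 CPM in un-diseased samples. Only diseased replicate 3 and un-diseased replicate 1 overlapped, by less than 0.1 CPM, and the diseased sample was higher in every pair. Its log2 fold change was 0.46 (SE 0.22), and edgeR's adjusted p was 0.218 without the block and 0.0682 with it, so it passed in neither.

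The promoter table held 38 of the 43 genes, with windows from 250 bases before to 50 after each start. On either strand, 12 of the 38 (31.6%) held TCACGTG, beside 6.85% of the 10475 tested genes in the table. The longer palindrome TCACGTGA was in 6 of 38 (15.8%), beside 2.11%, and the still longer palindrome with a G before and a C after it was in 0 of 38, beside 0.745%. A gene with a longer motif is also counted for the shorter ones. These are letter matches and not binding sites. Since TFEB is known to act on many lysosomal genes through such an element, a higher share among them is not an independent finding. The windows below show the core, in capitals, for 3 genes called with the block (Glb1, Gaa and Sgsh) and 3 that were not (Lamp1, Mcoln1 and Ctsd). Each is printed 5′ to 3′ along its gene, on GRCm38, with the strand in the next sentence.
Glb1: tgcttctgagTCACGTGgcctacagag
Gaa: ttctgtgcgaTCACGTGtttgactctg
Sgsh: gcctgccgtgCACGTGAccgtggggag
Lamp1: cgtgaccacaTCACGTGcggaacggag
Mcoln1: ggcgccccgcTCACGTGAccgcggcgca
Ctsd: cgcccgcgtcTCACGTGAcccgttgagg
They lie at chr9:114401019-114401045 (plus), chr11:119267812-119267838 (plus), chr11:119355523-119355549 (minus), chr8:13159135-13159161 (plus), chr8:3500463-3500490 (plus) and chr7:142387909-142387936 (minus), in that order. In Sgsh the core reads on the opposite strand, and Lamp1 and Mcoln1 hold further matches not shown.

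The 12 genes with TCACGTG had a median log2 fold change of 0.05, between -0.15 (Mcoln1) and 0.60 (Gaa), and 3 of them were called higher and none lower with the block. The 26 without it had a median of 0.16, between -0.54 (Ctsl) and 1.82 (Ctss), and 6 were called higher and 2 lower with the block. The sets overlapped in their log2 fold changes.

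Beyond these 43 genes, 114 other genes of lysosomal function, sorting and regulation were listed, cystatins among them, of which 107 were tested. By edgeR 2 of them rose, Siae and Glmp, and 5 fell, Mcoln2, Atp6v0e2, Rheb, Rragd and Cst3, so 7 of 107 passed beside 3.73% of all tested genes. With the block 30 passed, 13 higher and 17 lower, beside 23.9%. These lists were chosen with earlier results of these data known, so their shares are not an independent result. When each sample was left out in turn, 5 of the 7 calls held only without un-diseased replicate 1, and those of Glmp and Rragd were lost whichever sample was left out. Upper-quartile scaling did not call Rragd, and testing without the filter did not call Glmp.

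Of 30 other hydrolases and activators, 1 rose and none fell, beside 1.61% and 2.13% of all tested genes. The median log2 fold change was 0.19. Siae, which deacetylates sialic acids, had 26.0, 24.2 and 24.4 CPM in diseased samples, against 18.3, 15.3 and 17.2 CPM in un-diseased samples. All diseased samples were above all un-diseased ones, and the log2 fold change was 0.55 (SE 0.11, adjusted p = 0.0428 by edgeR). With the block 7 of the 30 were called higher and 3 lower, beside 10.5% and 13.3% of all tested genes. Smpd1, acid sphingomyelinase, and Ppt2, a thioesterase, were among the higher ones at 0.42 and 0.72, and Fuca1, a fucosidase, was among the lower ones at -0.37.

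Of 29 other membrane proteins, 1 rose and 1 fell, beside 1.61% and 2.13% of all tested genes. The median log2 fold change was 0.04. With the block 3 of the 29 were called higher and 5 lower, beside 10.5% and 13.3%. Glmp, a partner of the lysosomal transporter Mfsd1, had 67.3, 68.2 and 68.0 CPM in diseased samples, against 49.7, 53.0 and 50.4 CPM in un-diseased samples, for a log2 fold change of 0.41 (SE 0.08, adjusted p = 0.0438 by edgeR). Spread within groups was small and the groups were well apart. Mcoln2, the channel TRPML2, had 7.09, 16.2 and 12.8 CPM in diseased samples, against 25.6, 60.1 and 39.4 CPM in un-diseased samples. It fell by 1.80 on the log2 scale (SE 0.38, adjusted p = 0.0471 by edgeR), with no overlap, and limma-voom did not call it. Its neighbour Mcoln3, 7987 bases away on chromosome 3, had -1.62 (SE 0.44) and passed by edgeR only with the block (adjusted p = 0.0154), while Mcoln1, described above, passed in neither fit. The calcium channel Tpcn1, at -0.50 (SE 0.11), had an edgeR adjusted p of 0.0505, or 0.0146 with the block.

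Among 16 other proton pump subunits none rose and Atp6v0e2 fell, beside 1.61% and 2.13% of all tested genes. The median log2 fold change was 0.03. With the block 1 of the 16 was called higher and 2 lower, beside 10.5% and 13.3%. Atp6v0e2, an e subunit of the membrane sector, had 2.79, 2.37 and 2.10 CPM in diseased samples, against 5.21, 6.70 and 5.14 CPM in un-diseased samples. It fell by 1.23 on the log2 scale (SE 0.22, adjusted p = 0.0335 by edgeR). Its relative Atp6v0e had 36.9 ± 1.07 CPM in diseased and 29.0 ± 2.89 CPM in un-diseased samples (SD, n = 3 each) and was called higher only with the block (log2 fold change 0.34, SE 0.10). Tcirg1, the a3 subunit of osteoclast pumps, passed in neither fit at 0.13 (SE 0.15).

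None of 12 genes for sorting to the lysosome passed by edgeR, and 3 were under 0.05 before adjustment, beside 27.8% of all tested genes. With the block Nagpa and Gga2 were called higher and Gnptg lower, beside 10.5% and 13.3% of all tested genes. DESeq2 called none of the 12. Igf2r and M6pr, the mannose 6-phosphate receptors, had log2 fold changes of 0.18 (SE 0.11) and 0.26 (SE 0.13) and passed in neither fit.

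Of 18 tested regulators and relatives of TFEB, none rose and 2 fell, beside 2.13% of all tested genes called lower, with a median of -0.22. Rheb, the GTPase that activates mTORC1, had 54.2, 55.9 and 57.0 CPM in diseased samples, against 72.9, 88.4 and 78.6 CPM in un-diseased samples. It fell by 0.52 on the log2 scale (SE 0.10, adjusted p = 0.0402 by edgeR), with no overlap. Rragd, a Rag GTPase that helps hold TFEB at the lysosome, had 3.57, 3.24 and 2.32 CPM in diseased samples, against 6.15, 6.07 and 6.69 CPM in un-diseased samples. It fell by 1.05 on the log2 scale (SE 0.21, adjusted p = 0.0438 by edgeR). With the block Fnip2, Rragc and Tsc1 were called lower as well, or 5 of 18 beside 13.3% of all genes, and none was called higher. The relatives of Tfeb, Tfe3 and Mitf, had -0.36 (SE 0.13) and -0.29 (SE 0.14) and passed in neither fit.

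Of the cystatins, which inhibit cysteine cathepsins, 2 were tested. Cst3, secreted cystatin C, had 618, 583 and 538 CPM in diseased samples, against 903, 868 and 901 CPM in un-diseased samples. Every diseased sample lay well below every un-diseased one, and Cst3 fell by 0.62 on the log2 scale (SE 0.13, adjusted p = 0.0435 by edgeR). Cstb had a log2 fold change of 0.03 (SE 0.10). The 9 cysteine cathepsins of the list summed to 3907, 4916 and 4106 CPM in diseased samples, against 4098, 4883 and 5646 CPM in un-diseased samples, and overlapped. Counts of Ctsl per count of Cst3, a ratio within each library that needs no scaling, were 1.64, 2.12 and 1.90 in diseased samples, against 1.53, 1.94 and 1.89 in un-diseased samples, which overlapped.

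**Figure D5:**
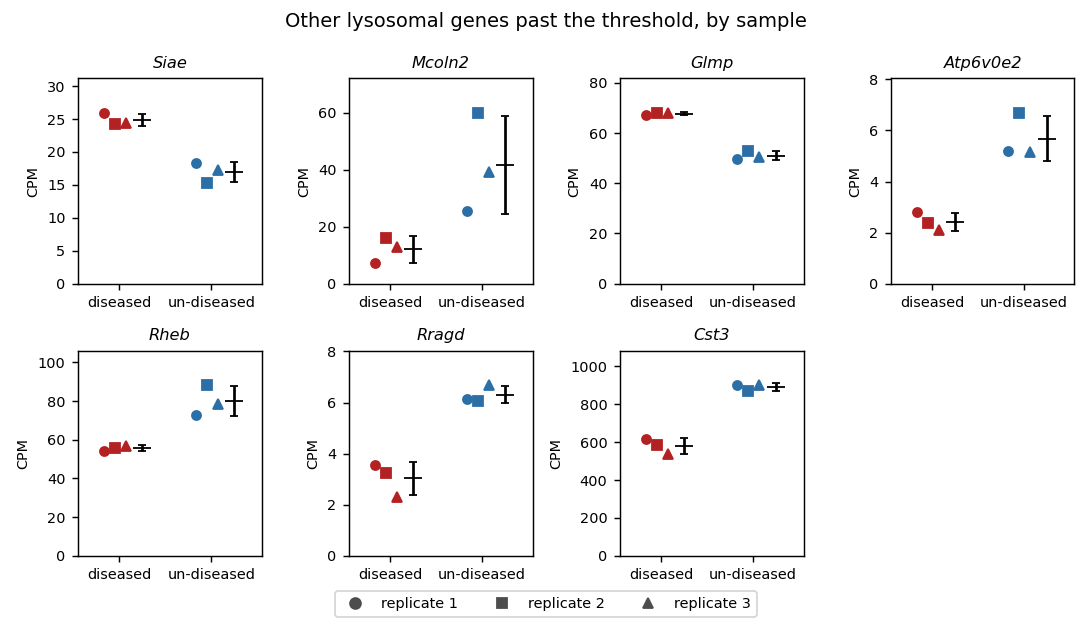
CPM by sample of the 7 other lysosomal genes past an adjusted p of 0.05 by edgeR, diseased on the left in red and un-diseased on the right in blue, with replicate numbers as symbols and the mean ± SD of 3 samples beside them. In all 7 panels the groups do not overlap, with Siae and Glmp higher in diseased samples and the other 5 lower.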

How the data were processed

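The values are estimated counts per gene that the authors deposited. The submitters' processing notes name the tools DESeq2 1.4.5, RSEM 1.3.1 and HISAT2 2.0.4, without their roles, and the build GRCm38. Counts were rounded to integers first, which altered 9.6% of them. The authors' log2 ratios and q-values in the deposited table, un-diseased over diseased per the file headers, served only for comparison. Genes were kept with filterByExpr (least count 10), which left 13264, and tested with edgeR 4.0.16 (R 4.3.3) by its quasi-likelihood test, TMM scaling and Benjamini-Hochberg adjustment over all 13264; steps were tested on simulated data. A count of 3 was worth 0.147 to 0.188 CPM, for counting error only. Samples sharing a replicate number in the labels deviated together from their group means. Over 13264 genes the correlations were 0.487, 0.578 and 0.276 for numbers 1, 2 and 3, and -0.531 to 0.137 for unlike numbers. Same-numbered samples were therefore taken as paired, although the labels do not say what they share. The pairing thus rests on the same expression values that the blocked fit tests. Exon lengths are unions over GENCODE M21 coding transcripts; promoters and positions are from RefSeq tables of GRCm38, which held all 43 genes (positions) and 38 (promoters). Ctsb, Ctsh, Galns, Asah1 and Atp6v1b2 had no promoter entry. The lysosomal genes and the other lists were chosen with earlier results of these data known. Values by sample are given for genes called in either fit, for Tfeb, Mcoln1, Lamp1, Ctsd, Ctsk and Ctss, and for Rnaset2a and Rnaset2b; promoters follow the calls, and the 6 short windows were chosen after values were seen. Among the other lists, genes called only with the block were given by example, as were some that passed in neither fit. Alternatives were DESeq2 1.42.0, limma-voom (limma 3.58.1), RLE and upper-quartile scaling, 2 other filters, the block and left-out samples or pairs.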

Additional observations from a re-analysis of the deposited data

How the results depend on the processing

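The direction of Glb1 and its adjusted p under 0.05 held with DESeq2, limma-voom, RLE and upper-quartile scaling, both other filters and the replicate block. DESeq2 called 1511 of 14041 genes, 5 of the 43 lysosomal ones and 17 of the others. With the replicate block 3167, 12 and 30 were called. Upper-quartile scaling shifted the median log2 fold change of all genes to 0.10 and called 4 of the 43, Glb1, Gaa, Lipa and Rnaset2a, all higher; 59.1% of its calls over all genes were upward, against 43.0%. Leaving out single samples gave 5 to 1075 calls over all genes, 0 to 2 of the 43 and 0 to 10 of the others, and with the block and pair 1, 2 or 3 left out there were 2569, 2083 and 1009 calls in all, 6, 7 and 4 among the 43, and 20, 15 and 4 among the others. The exact permutation test of 3 against 3 cannot go below 0.1.

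Changes near 0 turned sign in some fits, all of genes within 0.11 of 0 on the log2 scale in the full data. Lamp1 was at -0.0055 with DESeq2 and -0.0092 with RLE scaling, and upper-quartile scaling put Lamp2 at 0.067 and Scarb2 at 0.056. Leaving out single samples gave the ranges Lamp2 -0.16 to 0.078, Scarb2 -0.16 to 0.11, Lamp1 -0.035 to 0.061, Ctsa -0.043 to 0.10, Ctsb -0.043 to 0.19, Ctsd -0.037 to 0.10, Lgmn -0.064 to 0.16, Naglu -0.13 to 0.16, Atp6v0d1 -0.036 to 0.056, Atp6v1a -0.10 to 0.14, Asah1 -0.00037 to 0.13 and Psap -0.012 to 0.14. With the block, the genes that turned were, without pair 1, Lamp1 at -0.027, Ctsa at -0.018, Ctsh at -0.034, Lgmn at -0.0072, Naglu at -0.085, Atp6v0d1 at -4.5e-05 and Atp6v1a at -0.026. They were, without pair 2, Ctsb at -0.043, Ctsd at -0.018, Naglu at -0.029, Asah1 at -0.011, Atp6v0d1 at -0.010 and Atp6v1a at -0.099, and, without pair 3, Lamp1 at -0.0038, Lamp2 at 0.084, Scarb2 at 0.13, Ctsf at 0.0092 and Neu1 at 0.011. The causes were not tested.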
